A study of Mus musculus with 6 samples.

Results

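The genes examined here encode the oxidative phosphorylation system, in fibroblasts sorted by flow cytometry from tumours of the mouse mammary gland (cancer-associated fibroblasts). They were chosen by symbol from the count table: every mitochondrially encoded gene, the nuclear gene families of complexes I to V, and both cytochrome genes Cycs and Cyc1, without Ndufa4, Ndufa4l2, Cox4i1 and Cox4i2. This gave 102 of 18197 symbols. Of these, 16 are encoded by mitochondrial DNA, namely 8 mRNAs, 2 rRNAs and 6 tRNAs, and 86 are encoded in the nucleus, namely 76 subunits or cytochrome c and 10 assembly factors or other genes that share a family name. All 86 nuclear members, all 8 mRNAs and both rRNAs passed the filter on low counts, as did 4 of the 6 tRNAs. GENCODE M21 lists 13 mitochondrial protein-coding genes, and the other 5 were not analysed here.

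The study measured mRNA by sequencing in 6 libraries, with 3 under the label WT and 3 under mPGES-1 KO. They are numbered here as labelled. All came from C57BL/6 mice bearing breast tumours induced by the PyMT (polyoma middle T) oncogene, taken at 16 to 20 weeks, so both groups carry the oncogene and differ in the label of the mPGES-1 genotype. mPGES-1, encoded by Ptges, is the enzyme that makes prostaglandin E2 downstream of the cyclooxygenases. Sorted cells were converted to cDNA with a low-input kit and amplified by 16 PCR cycles, and single reads of 75 bases carried neither strand nor molecular identifiers. The sources used here do not give the promoter behind the oncogene, the surface markers of the sort, the part of Ptges that was deleted or whether each library is a separate animal. P-values therefore reflect library-to-library spread alone, and that spread may be technical.

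Oxidative phosphorylation is carried out by 5 complexes of the inner mitochondrial membrane. Complexes I to IV pass electrons from NADH and succinate to oxygen, complexes I, III and IV pump protons, and complex V, the ATP synthase, uses the proton gradient to make ATP. Complexes I, III, IV and V are built from subunits of both genomes, whereas complex II is wholly nuclear encoded. Mitochondrial DNA is transcribed as long precursors from which tRNAs, rRNAs and mRNAs are cut, while each nuclear gene has its own promoter, many of them with sites for the factors NRF1 and GABP.

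Total counts ran from 23013498 to 43648450 per library. Ptges was at 31.9, 19.2 and 27.9 CPM (counts scaled to a common library total) in WT 1, 2 and 3 and at 186, 136 and 128 CPM in mPGES-1 KO 1, 2 and 3, a log2 difference of 2.51 ± 0.31 (SE, adjusted p = 0.0171, edgeR). The targeted gene was therefore higher, not lower, in libraries labelled mPGES-1 KO, and its counts do not check the labels. All 14 fibroblast markers listed had counts in every library. Together they held 1.13% to 2.91% of counts in libraries labelled WT and 0.818% to 2.04% in the 3 labelled mPGES-1 KO. Of the 14, Thy1 was called lower (log2 difference -3.215 ± 0.44, SE, adjusted p = 0.0184, edgeR) and Dpp4 higher (3.095 ± 0.64, adjusted p = 0.04996, edgeR). The other 12 were not called, and 2.76% of all genes tested were called. The libraries also differed in markers of other cell types. The luminal epithelial list (21 of 22 markers in the table, Foxa1 at 0 in WT 1) held 0.776% to 1.37% of counts in libraries labelled WT. It held 3.42% to 5.14% in the 3 labelled mPGES-1 KO. This luminal share was below the fibroblast share in every library labelled WT and above it in every library labelled mPGES-1 KO. The list of pericytes and vascular smooth muscle (14 of 14 markers, none at 0) held 0.315% to 0.916% against 0.0255% to 0.0511%. The basal epithelial list (8 of 9 markers, Oxtr and Cdh3 at 0 in at least 1 library) held 0.0574% to 0.201% against 0.0379% to 0.0410%. Of its 6 markers tested, 4 had a positive difference and 1 was lower without overlap, Acta2, which is also in the pericyte list. In a bulk sample, fewer cells of a type and less RNA per cell cannot be told apart.

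Sequence decides which members a read of 75 bases can be assigned to. Of the 102 members, 41 had at least 1 stretch of 75 bases that also occurs in another GENCODE M21 transcript, and 5 had it over more than 50% of their length: mt-Nd3 (97.8%), mt-Nd4 (61.5%), Atp5l (76.0%), Atp5g2 (over its whole length) and Cox7c (50.4%). The copies of mitochondrial genes lie in nuclear pseudogenes. The stretches below run from base 76 to base 150 of 2 mitochondrial mRNAs, the first shared with the pseudogene Gm28438 and the second found in no other transcript.
mt-Nd3: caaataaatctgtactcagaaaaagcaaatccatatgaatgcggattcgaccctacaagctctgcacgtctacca
mt-Cytb: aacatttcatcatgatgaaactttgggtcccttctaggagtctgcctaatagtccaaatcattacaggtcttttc
mt-Nd3 averaged 3.34 CPM per kilobase of transcript over the 6 libraries, against 739 to 5711 CPM per kilobase for the other 7 mitochondrial mRNAs. Counts of mt-Nd3, mt-Nd4, Atp5l, Atp5g2 and Cox7c are therefore uncertain, mt-Co1 is shared over 39.8%, and mt-Nd1, mt-Nd6 and mt-Cytb had 0.0% shared. The search covered exact matches to annotated transcripts only. Copies outside these transcripts, or with a mismatch, were not searched for. mt-Nd6 lies on the opposite strand from the other mitochondrial mRNAs, and its reads cannot be told from antisense reads there.

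Promoter sequences of RefSeq (build GRCm38.p6, 250 bases before to 50 bases after the start) were found for 73 of the 86 nuclear members. The NRF1 motif GCGCATGCG, on either strand, occurred in 10 of the 73 (13.7%) and in 2.41% of the promoters of all protein-coding genes. The ETS motif CCGGAAG, bound by GABP, occurred in 16 (21.9%, against 11.9%), the YY1 motif AAGATGGCG in 7 (9.59%, against 1.94%), the motif TCAAGGTCA of oestrogen-related receptors in 2 (2.74%, against 0.332%) and CCAAT in 34 (46.6%, against 39.0%). None of these motifs holds another of them. The median GC content of the promoters was 59.0% in members and 56.3% in protein-coding genes, and the motif shares are not matched for it. In 65 of the 73, a stretch after the start lay in the first 600 bases of a GENCODE transcript of the gene. The 3 sequences below, each the 250 bases before the start on the gene's own strand, show the NRF1 motif in capitals, matched on both strands with 1 base of offset, in genes of complexes I, IV and V, and in Cox6a1 also the ETS motif on the opposite strand.
Ndufa11 (chr17:56717512-56717761, plus strand): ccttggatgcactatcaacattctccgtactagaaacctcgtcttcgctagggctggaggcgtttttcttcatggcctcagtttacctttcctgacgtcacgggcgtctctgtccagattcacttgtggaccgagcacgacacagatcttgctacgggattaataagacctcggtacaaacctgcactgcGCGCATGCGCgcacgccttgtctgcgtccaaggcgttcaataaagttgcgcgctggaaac
Cox6a1 (chr5:115348959-115349208, minus strand): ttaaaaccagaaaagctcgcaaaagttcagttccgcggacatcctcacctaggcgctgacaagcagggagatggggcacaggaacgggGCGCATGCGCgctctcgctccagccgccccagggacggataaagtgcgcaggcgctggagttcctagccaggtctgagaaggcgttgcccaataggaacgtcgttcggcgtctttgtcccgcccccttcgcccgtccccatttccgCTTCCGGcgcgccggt
Atp5k (chr5:108434400-108434649, minus strand): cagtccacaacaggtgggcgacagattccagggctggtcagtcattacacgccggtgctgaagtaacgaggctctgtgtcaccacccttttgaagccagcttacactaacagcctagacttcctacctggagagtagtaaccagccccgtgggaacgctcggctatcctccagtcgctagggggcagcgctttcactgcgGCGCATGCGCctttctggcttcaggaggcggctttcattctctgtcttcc
In libraries labelled mPGES-1 KO, Ndufa11, an accessory subunit of complex I, had a log2 difference of -0.80, Cox6a1, an accessory subunit of complex IV, of -0.44, and Atp5k, subunit e of complex V, of -0.92. Over all 10 members with the NRF1 motif, 8 were negative and 2 positive, from -0.92 to 0.91 with a median of -0.53, and over the 63 without it the median was -0.48 (55 negative, 8 positive). A motif match is a property of the letters, and binding was not measured.

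The median log2 difference was positive for mRNAs of the mitochondrial genome and negative for those of the nuclear genome. No single member passed the test, and the summed shares of both sets overlapped between the groups. All 8 mitochondrial mRNAs had a positive log2 difference (mPGES-1 KO minus WT), with a median of 1.06 and a range of 0.67 to 1.29. Of the 86 nuclear members, 70 had a negative and 16 a positive difference, with a median of -0.46, whereas the median over all 16543 genes tested was -0.04 and 51.6% of those genes were negative. edgeR's quasi-likelihood test with Benjamini-Hochberg adjustment over all genes called 0 of the 102 members at an adjusted p under 0.05, against 2.76% of all genes. At an unadjusted p under 0.05 it gave 23 of the nuclear members, 22 lower and 1 higher, where 10.5% of all genes were lower and 8.56% higher, and 2 of the 8 mitochondrial mRNAs, both higher. DESeq2 called 2 nuclear and 3 mitochondrial members (14.3% of genes it tested), and limma-voom with quality weights 18 and 7 (11.9% of genes).

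**Figure D1:**
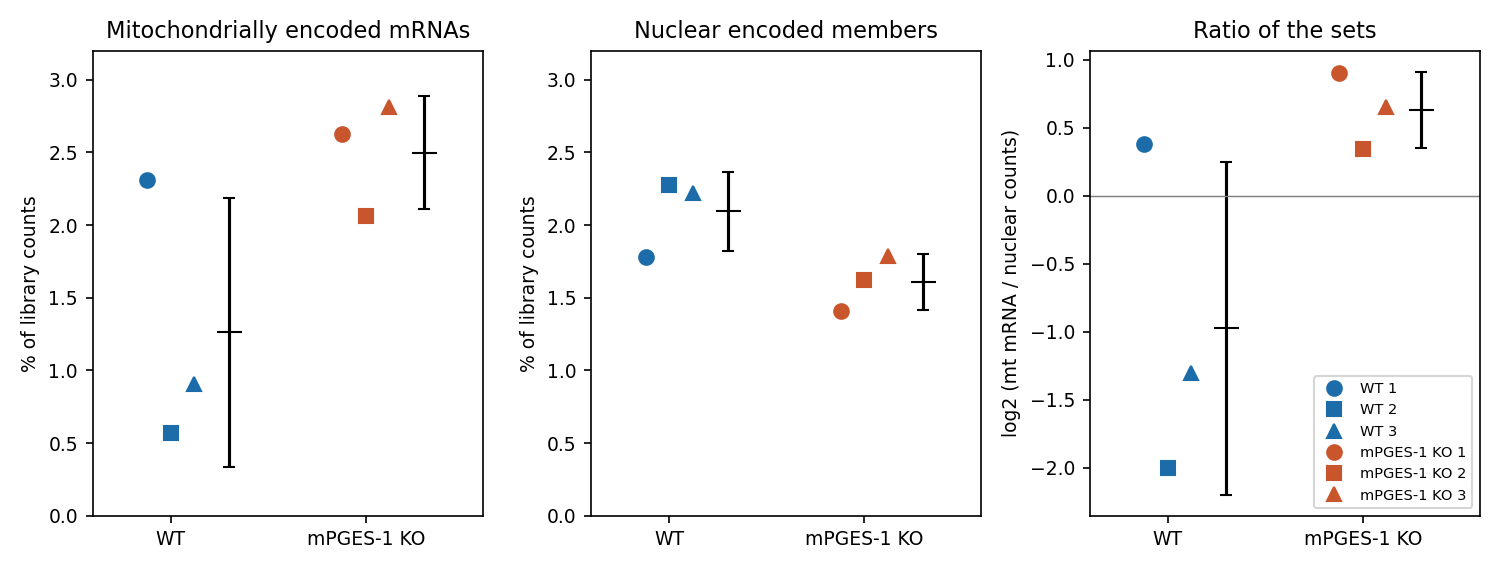
Summed counts of the 8 mitochondrially encoded mRNAs and of the 86 nuclear members as a percentage of each library's total, and the log2 ratio of both sums, with 1 point per library and a bar at each group's mean. WT 1, at 2.31% on mitochondrial mRNAs, lies among libraries labelled mPGES-1 KO, while WT 2 and WT 3 lie at 0.569% and 0.904%.

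The 8 mitochondrial mRNAs took 2.31%, 0.569% and 0.904% of counts in WT 1, 2 and 3 and 2.62%, 2.06% and 2.81% in mPGES-1 KO 1, 2 and 3. WT 1 was between the mPGES-1 KO libraries and the groups overlapped. The means were 1.26% ± 0.926 (SD, n = 3) and 2.498% ± 0.390 (SD, n = 3), and the two-sided exact permutation test gave p = 0.2, where 3 libraries against 3 cannot go below 0.1. The nuclear members took 1.78%, 2.28% and 2.22% of counts in libraries labelled WT and 1.41%, 1.62% and 1.79% in the 3 labelled mPGES-1 KO. Here too only WT 1 lay within the range of the other group, 2.09% ± 0.272 against 1.61% ± 0.193 (SD, n = 3 each, exact permutation p = 0.2). The 95% Wilson interval of each of these shares reached at most 0.0059 percentage points to either side, which covers counting error only.

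A ratio taken within a library does not depend on scaling between libraries. Summed mitochondrial mRNA counts over summed nuclear counts were 1.30, 0.250 and 0.407 in WT 1, 2 and 3 and 1.87, 1.27 and 1.57 in mPGES-1 KO 1, 2 and 3. The log2 ratio averaged -0.97 ± 1.22 and 0.63 ± 0.28 (SD, n = 3 each), a difference of 1.61 or 3.04-fold (exact permutation p = 0.2). Without WT 1 the difference in log2 ratio was 2.28, and without WT 2 it was 1.09. WT 1 was again within the mPGES-1 KO range, and the spread among libraries labelled WT was as wide as from -2.00 to 0.38. Within complex I, where both genomes give subunits, the ratio did not overlap: 1.602, 0.339 and 0.558 against 2.47, 2.01 and 2.29 (exact permutation p = 0.1, the smallest the design allows). In complexes III and IV, each with 1 mitochondrial mRNA in the table, the ratio was 3.56-fold and 3.196-fold higher on average and overlapped through WT 1. Over the 15 library-level shares and ratios tested, the lowest adjusted p was 0.273 by the Benjamini-Hochberg method.

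**Figure D2:**
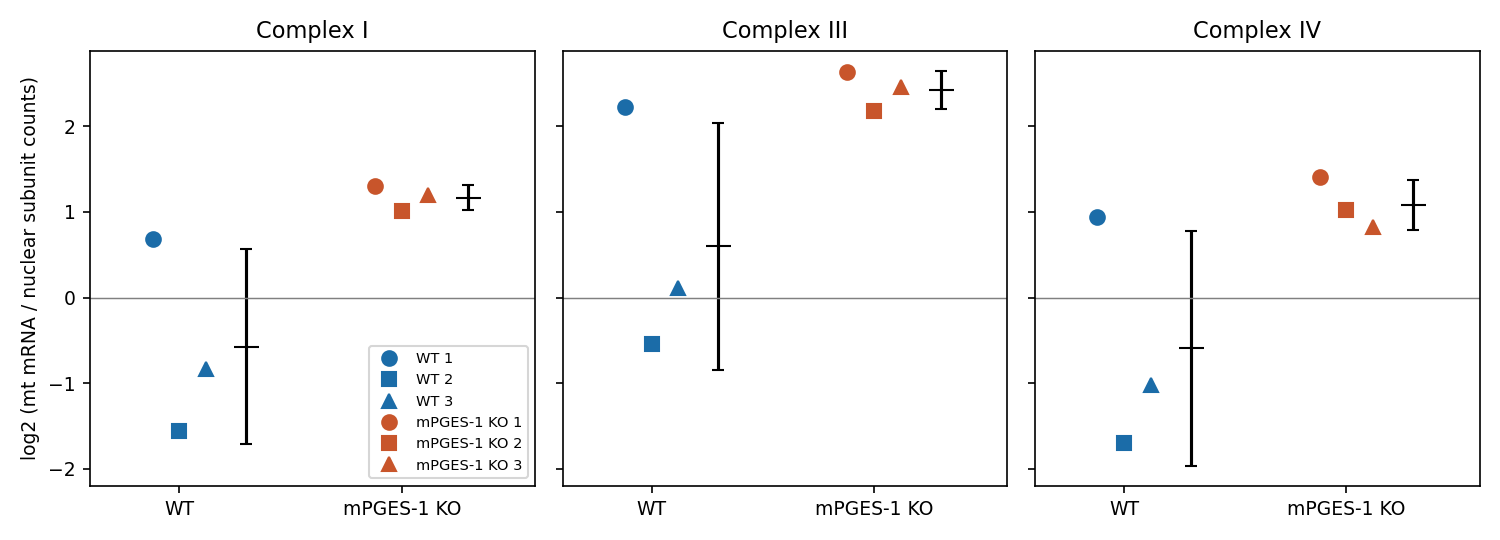
The log2 ratio of mitochondrial mRNA counts to nuclear subunit counts within complexes I, III and IV, 1 point per library, with a bar at each group's mean. In complex I the lowest library labelled mPGES-1 KO, at 1.01, is above WT 1, the highest labelled WT, at 0.68.

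mt-Nd2, a membrane-arm subunit of complex I (chrM:3914-4951, mm10), was at 732, 279 and 663 CPM in WT 1, 2 and 3 and at 1243, 1055 and 1784 CPM in mPGES-1 KO 1, 2 and 3. Every library labelled mPGES-1 KO was above every library labelled WT. The log2 difference was 1.29 ± 0.42 (SE, adjusted p = 0.146, edgeR). mt-Nd4, another proton-pumping subunit of complex I (chrM:10167-11544), was at 1196, 501 and 1014 CPM against 2114, 1407 and 2220 CPM, with no overlap either (1.08 ± 0.39, adjusted p = 0.182, edgeR). Of the 8 mRNAs, these 2 were higher without overlap, as were 12.2% of all genes tested, and 61.5% of mt-Nd4 is shared with pseudogenes.

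mt-Cytb, the haem-carrying cytochrome b of complex III (chrM:14145-15288), had the highest mean per kilobase over the 6 libraries. In WT 2 and WT 3 mt-Nd1 was above it, at 1415 and 2520 CPM per kilobase against 1326 and 2141. mt-Cytb was at 8916, 1517 and 2449 CPM in libraries labelled WT and at 8965, 7009 and 10350 CPM in the 3 labelled mPGES-1 KO. WT 1 was level with mPGES-1 KO 1 and only WT 2 and WT 3 were low, and the log2 difference was 1.03 ± 0.63 (adjusted p = 0.449, edgeR). mt-Co1, the catalytic subunit of complex IV, had the same order among libraries labelled WT, at 5034, 1125 and 1935 CPM, against 6673, 4142 and 5311 CPM. mt-Nd1, at 5063, 1354 and 2411 CPM against 5160, 4421 and 7162 CPM, and mt-Nd5, at 1632, 400 and 579 CPM against 2009, 1473 and 2262 CPM, are both membrane subunits of complex I. In each of these 4 mRNAs WT 1 stood with libraries labelled mPGES-1 KO. Their log2 differences ran from 0.92 to 1.14 with adjusted p-values from 0.299 to 0.449 (edgeR). mt-Nd6, the complex I subunit encoded on the other strand, was at 396, 175 and 315 CPM against 538, 356 and 520 CPM, the smallest difference of the 8 (0.67 ± 0.35). mt-Nd3 was at most at 2.32 CPM in any library.

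**Figure D3:**
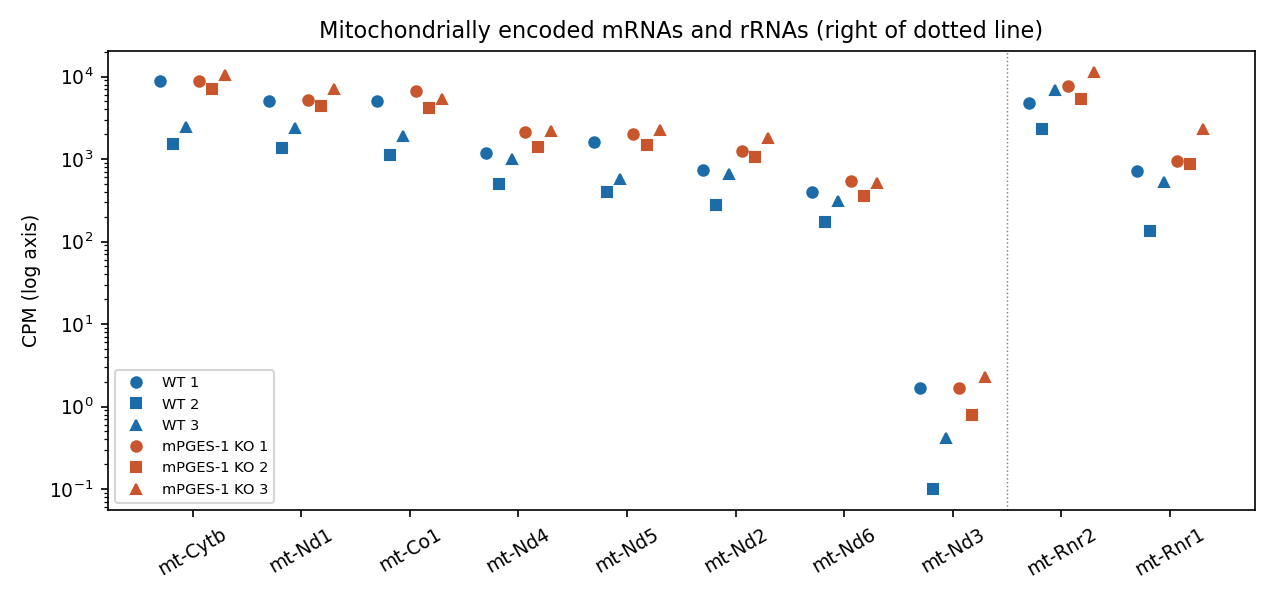
CPM on a log axis of the mitochondrially encoded mRNAs and rRNAs, 1 point per library. WT 2 is the lowest of libraries labelled WT in all 8 mRNAs, against 24.1% of all genes tested. WT 1 is the highest in all 8, against 36.9% of all genes tested.

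WT 1 lay within the range of libraries labelled mPGES-1 KO for 6 of the 8 mitochondrial mRNAs, against 39.1% of all genes. WT 2 and WT 3 did so for 0 of 8, against 40.3% and 37.6% of all genes. Without WT 1, all 8 mRNAs were higher in every library labelled mPGES-1 KO, where 20.3% of all genes were. WT 2 and WT 3 were already below every library labelled mPGES-1 KO in all 8. The outcome without WT 1 was thus fixed in advance and adds no independent evidence. The median of the 8 mRNAs without WT 1 was 1.72, and edgeR called mt-Nd5 (2.00, adjusted p = 0.0365) and mt-Cytb (2.18, adjusted p = 0.0365), with 3.19% of all genes called. Without mPGES-1 KO 2 all 8 also stopped overlapping, where 15.9% of all genes were higher without overlap, and none was called. Leaving out any of the other 4 libraries left 2 of 8 apart, where 15.1% to 17.9% of all genes were higher without overlap. In marker content, WT 1 had 1.37% of counts on luminal markers, against 0.776% and 0.902% in WT 2 and WT 3, and 0.0582% on leukocyte markers, against 0.0232% and 0.0211%. On pericyte (0.658%), fibroblast (1.41%), basal epithelial (0.13%) and endothelial (0.00995%) markers, WT 1 lay between WT 2 and WT 3. On muscle and fat cell markers WT 1 was below both, at 0.0285% against 0.0566% and 0.0621%. The leukocyte list (14 of 14 markers; Cd79a, Ms4a1 and S100a9 among those at 0 in at least 1 library) held 0.0306% to 0.129% in libraries labelled mPGES-1 KO. The part of these other cells in the mitochondrial values was not tested.

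Of the 2 rRNAs of the mitochondrial ribosome, mt-Rnr1 ranked the libraries within each group as the summed mRNAs did. mt-Rnr2 did so among libraries labelled mPGES-1 KO but not among those labelled WT, where WT 3 was highest. mt-Rnr1, the small-subunit rRNA (chrM:70-1024), was at 727, 134 and 524 CPM in libraries labelled WT and at 951, 883 and 2335 CPM in the 3 labelled mPGES-1 KO, with no overlap (log2 difference 1.59 ± 0.65, adjusted p = 0.236, edgeR). mt-Rnr2, the large-subunit rRNA, was at 4728, 2320 and 6852 CPM against 7672, 5407 and 11510 CPM, and overlapped. Per mRNA count, rRNA counts were 0.238, 0.459 and 0.788 against 0.323, 0.317 and 0.468, so WT 3 had the most rRNA for its mRNA and WT 1 the least. The ratio of mt-Rnr2 to mt-Rnr1 was 6.50 in WT 1 and 17.4 and 13.1 in WT 2 and WT 3, against 4.93 to 8.07 in libraries labelled mPGES-1 KO. The ratio of mt-Nd6 to mt-Nd5 showed the same division, at 0.243 in WT 1, 0.438 and 0.544 in WT 2 and WT 3, and 0.230 to 0.268 in the other group. The 6 tRNAs held at most 0.00147% of counts and overlapped.

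Among nuclear members, complex I had the most negative median. Of its 35 nuclear subunits, 32 had a negative log2 difference, the median was -0.62, and 13 were lower without overlap (37.1%, against 15.7% of all genes tested) and 1 higher. The median was -0.46 over the 8 nuclear subunits of complex III, -0.39 over the 13 of complex IV, -0.20 over the 15 of complex V and -0.11 over the 4 of complex II. Over all 86 nuclear members, 19 were lower (22.1%, against 15.7% of all genes) and 2 higher (2.33%, against 12.2%) without overlap. These shares of all genes are not matched for transcript length. The median length was 849.5 bases in the members and 2580 bases in all genes tested. Differences between complexes were not tested. Complex III was alone among the 5 in having a nuclear share of counts that did not overlap: 0.192%, 0.235% and 0.219% in libraries labelled WT against 0.142%, 0.160% and 0.178% (exact permutation p = 0.1, adjusted p = 0.273 over the 15 tests).

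**Figure D4:**
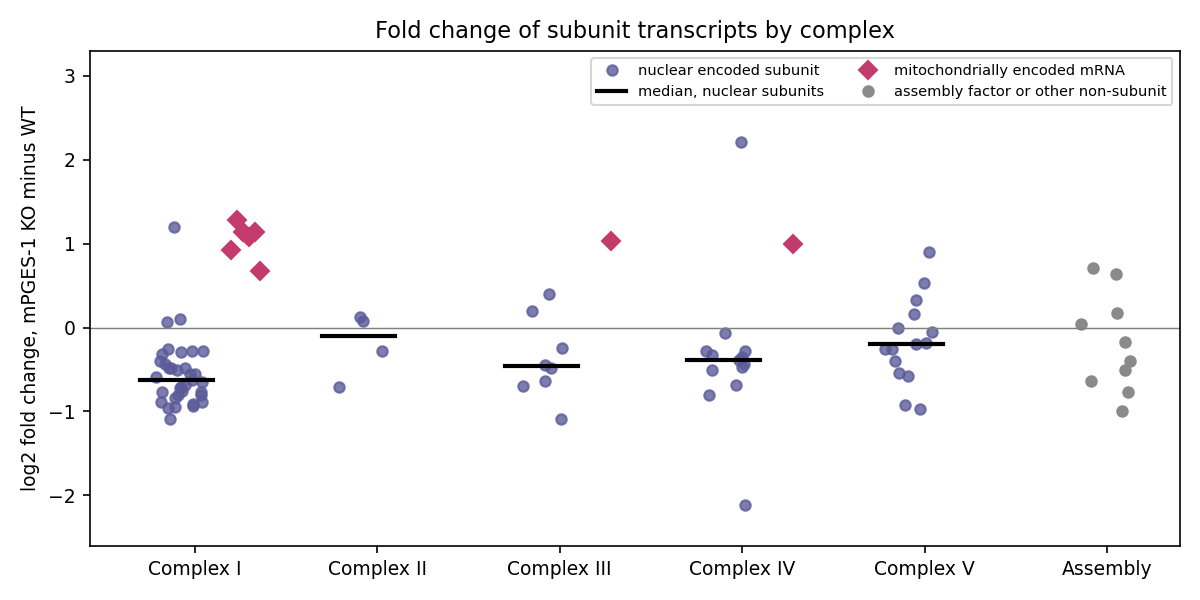
Log2 difference (mPGES-1 KO minus WT, edgeR) of the subunits of each complex, arranged by complex and genome, with assembly factors and other non-subunits apart. A line marks the median of the nuclear subunits of each complex. Cycs, the rRNAs and the tRNAs are not shown. The mitochondrial mRNAs lie above 0 in every complex that has one in the table, and 32 of the 35 nuclear subunits of complex I lie below 0.

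Of the 6 nuclear core subunits of complex I in the table, which include the carriers of its flavin and iron-sulphur clusters, 4 were lower and 1 was higher without overlap, where 15.7% and 12.2% of all genes tested were. Ndufs8, an iron-sulphur subunit of the connecting arm (chr19:3908863-3912774), was at 255, 358 and 330 CPM in libraries labelled WT and at 150, 147 and 205 CPM in the 3 labelled mPGES-1 KO. The groups did not overlap, and the log2 difference was -0.91 ± 0.26 (adjusted p = 0.113, edgeR). Ndufv1, the flavin-carrying NADH dehydrogenase subunit, was at 191, 257 and 249 CPM against 141, 154 and 126 CPM, without overlap (-0.73 ± 0.24, adjusted p = 0.154, edgeR). Among accessory subunits, Ndufa2 had the most negative value, at 272, 431 and 533 CPM against 194, 127 and 258 CPM (-1.09 ± 0.36, adjusted p = 0.154, edgeR), and Ndufa3 was at 211, 334 and 415 CPM against 174, 113 and 206 CPM. In both, WT 1 was the lowest library labelled WT and lay just above mPGES-1 KO 3.

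Ndufs1, the largest core subunit, which carries several iron-sulphur clusters (chr1:63143596-63176833, minus strand), differed in the opposite direction. It was at 64.4, 48.4 and 27.1 CPM in libraries labelled WT and at 83.0, 127 and 112 CPM in the 3 labelled mPGES-1 KO. The groups did not overlap, and the log2 difference was 1.20 ± 0.37 (adjusted p = 0.130, edgeR; 0.029 by DESeq2). Ndufs1, Ndufv1 and Ndufv2 form the NADH-oxidising module. The ratio of Ndufs1 to Ndufv1 in CPM was 0.338, 0.189 and 0.109 in libraries labelled WT and 0.589, 0.828 and 0.888 in the 3 labelled mPGES-1 KO. The ratio to Ndufv2 was 0.222, 0.138 and 0.0692 against 0.431, 0.452 and 0.445. Ndufs1 was higher and Ndufv1 and Ndufv2 were each lower without overlap, so both ratios had to separate the groups and add no independent evidence.

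Complex II, succinate dehydrogenase, also belongs to the citric acid cycle. Its iron-sulphur subunit Sdhb (chr4:140961203-140979193) was at 364, 361 and 347 CPM in libraries labelled WT and at 147, 231 and 278 CPM in the 3 labelled mPGES-1 KO, without overlap (log2 difference -0.71 ± 0.29, adjusted p = 0.235, edgeR). Sdha, the flavoprotein that holds the active site, was at 203, 215 and 176 CPM against 223, 221 and 180 CPM (0.07 ± 0.23). The ratio of Sdha to Sdhb was 0.506 to 0.594 in libraries labelled WT and 0.647 to 1.52 in the 3 labelled mPGES-1 KO. In complex III, the Rieske iron-sulphur protein Uqcrfs1 (0.20 ± 0.25) and cytochrome c1, Cyc1 (-0.25 ± 0.34), overlapped, as did the small subunit Uqcr10 (-0.45 ± 0.31). Cyc1 was high in WT 1 alone, at 356 CPM, against 163 to 231 CPM in the other 5 libraries. Cytochrome c itself, Cycs, differed by -0.11 ± 0.27.

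In complex IV, the ubiquitous isoforms Cox6a1, Cox7a2 and Cox8a had log2 differences of -0.44, -0.47 and -0.33 and overlapped, as did Cox5a (-0.39) and Cox5b (-0.28), which surround the catalytic core. Cox6a1 was the highest nuclear member per kilobase, at 1121 CPM per kilobase over the 6 libraries (lowest 731, highest 1530). The isoforms known from heart and muscle were low: Cox7a1 was at 5.63 to 9.57 CPM and Cox8b at 1.34 to 8.37 CPM, both overlapping. Cox6a2 had 0, 22 and 15 counts in libraries labelled WT and 0, 8 and 147 in the 3 labelled mPGES-1 KO, so its log2 difference of 2.21 ± 2.25 rested on mPGES-1 KO 3. Cox6b2, an isoform known from testis (chr7:4751792-4753094), had the largest negative difference, at 3.53, 14.8 and 17.0 CPM against 3.33, 2.01 and 2.80 CPM (-2.11 ± 0.83, adjusted p = 0.219, edgeR). WT 1 lay just above the highest library labelled mPGES-1 KO.

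In complex V, the catalytic subunits Atp5a1 and Atp5b had positive differences that overlapped. Atp5a1 was at 793, 614 and 528 CPM in libraries labelled WT and at 654, 1170 and 982 CPM in the 3 labelled mPGES-1 KO (0.54 ± 0.31), and Atp5b had 0.33 ± 0.32. The ratio of Atp5a1 to Atp5b, partners in the same ring, was 0.492 to 0.570 against 0.547 to 0.652 and overlapped. Subunit c, which forms the membrane rotor, comes from 3 genes with the same mature product: Atp5g1, Atp5g2 and Atp5g3 differed by -0.20, 0.16 and -0.18. Atp5s, a factor B homologue that is not a core subunit, was higher without overlap, at 21.3, 26.4 and 21.6 CPM against 27.7, 40.0 and 45.7 CPM (0.71 ± 0.34, adjusted p = 0.318, edgeR). Of the 10 assembly factors and other non-subunits, the median was -0.29, and Ndufaf2, a complex I assembly factor, was lower without overlap (-1.0 ± 0.41), with 65.6% of its exonic bases shared with a gene on the opposite strand.

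WT 1 also stood apart among nuclear members. It lay within the range of libraries labelled mPGES-1 KO for 55 of 86 (64.0%, against 39.1% of all genes). WT 2 did so for 18 (20.9%, against 40.3%) and WT 3 for 14 (16.3%, against 37.6%). Without WT 1, 57 nuclear members were lower without overlap, where 24.7% of all genes were, and without mPGES-1 KO 3 it was 50, where 21.7% of all genes were. Leaving out a library can only keep or raise this count, and WT 1 was the lowest library labelled WT for 65 of the 86. With each of the other 4 libraries left out, the count was 19 to 22, or 22.1% to 25.6% of the members, near the 18.1% to 21.1% of all genes. The part of the luminal, basal and pericyte marker RNA, whose shares separate the groups, in the nuclear values was not tested.

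Fold change among nuclear members went with transcript length. Across the 86 members, Spearman's rho between log2 difference and the length of the reference transcript was 0.395, and across 13415 other protein-coding genes it was 0.105. With the GC content of the transcript, rho was -0.302 over the members and -0.365 over the other genes. These are correlations across genes that share the same 6 libraries, so they are descriptions. The 25 members under 600 bases had a median of -0.68 (23 negative, 2 positive), the 34 of 600 to under 1200 bases -0.46 (31 and 3) and the 27 of 1200 bases or more -0.20 (16 and 11). In the same length classes, other protein-coding genes had medians of -0.43 (n = 180), -0.30 (n = 1222) and 0.02 (n = 12013). In the shortest class, 7 of 25 members were lower without overlap, against 16.1% of other protein-coding genes. It was 6 of 34 (17.6%) against 24.4% in the middle class and 6 of 27 (22.2%) against 15.6% in the longest. The share of members was thus above that of other genes in the shortest and longest classes and below it in the middle class. Ndufs1, with 2590 bases, Atp5a1, with 2471, and Sdha, with 2900, are among the long members, and Uqcrq and Ndufa2 among the short. Ndufs1 and Ndufv1 are both long and differed in opposite directions. Among the 42 nuclear members with no stretch and no exon shared with another gene, rho was 0.391.

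**Figure D5:**
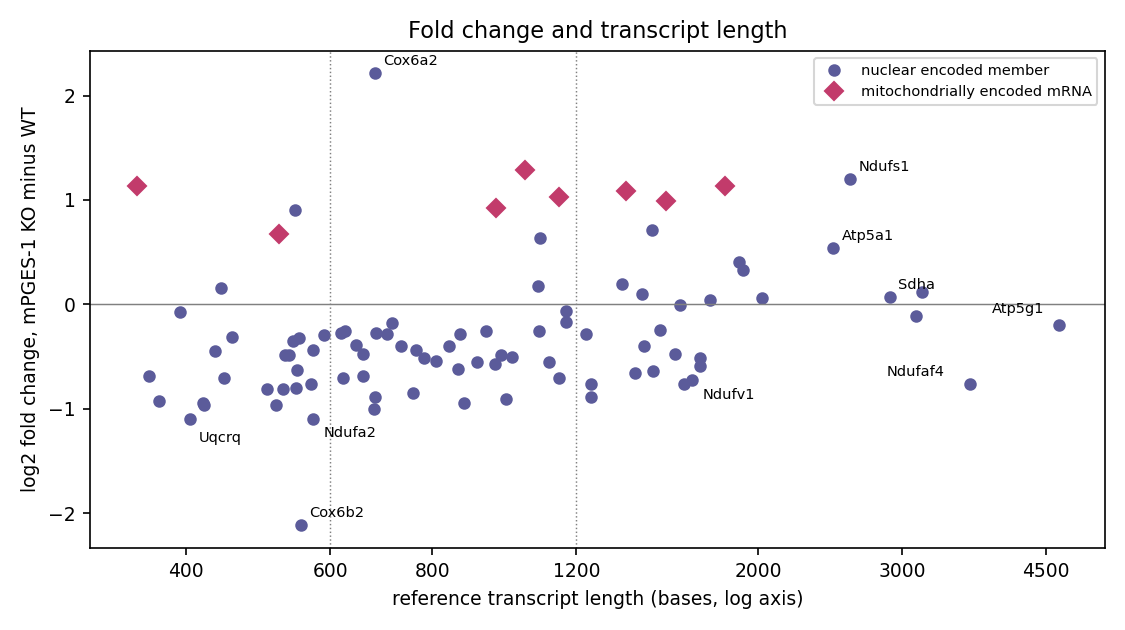
Log2 difference (mPGES-1 KO minus WT, edgeR) against reference transcript length on a log axis, with dotted lines at 600 and 1200 bases. There is 1 point per nuclear member and per mitochondrial mRNA. Of the nuclear members under 600 bases, 23 of 25 lie below 0, and the 8 mitochondrial mRNAs lie above 0 at every length.

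Single libraries differed in length profile within a group as well. The rank correlation of length with a library's deviation from the mean of the 6 was 0.394 in WT 1, -0.439 in WT 2 and -0.499 in WT 3, and 0.117, 0.566 and 0.115 in mPGES-1 KO 1, 2 and 3. WT 1 against the mean of WT 2 and WT 3, all of 1 labelled genotype, gave a rho of 0.511 over the nuclear members and -0.0157 over other genes. With GC content the same contrast gave -0.234 and -0.266. Counts of long over short nuclear members were 1.62, 0.948 and 0.817 in libraries labelled WT and 1.36, 2.37 and 1.38 in the 3 labelled mPGES-1 KO (exact permutation p = 0.3). With offsets for GC content and length, the median of the nuclear members moved from -0.46 to -0.16, with 55 negative and 31 positive, and that of the mitochondrial mRNAs to 0.69, with 8 of 8 still positive. WT 1 had the largest total count but the fewest genes with a count, about 15920 against 16520 to 17840 in the other libraries. The sources used here give no RNA quality values, and the part of RNA quality in these values was not tested.

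Genes that act on the respiratory chain from outside were taken from lists, with each list's count and median beside 1.2% called higher, 1.56% called lower and a median of -0.04 over all genes. Of 51 assembly factors outside the rule, 0 were called and the median was -0.45. Of 21 genes of mitochondrial DNA transcription and replication, 1 was called higher, Slc25a36, a carrier of pyrimidine nucleotides into the matrix (36.3, 32.4 and 28.9 CPM against 94.1, 72.2 and 143 CPM; log2 difference 1.66 ± 0.33, adjusted p = 0.0451, edgeR), and the list's median was 0.04. Of 23 genes of mitochondrial RNA processing, 1 was called lower, Fastk, a relative of RNA-binding proteins of mitochondria (111, 146 and 139 CPM against 36.9, 58.7 and 39.2 CPM; adjusted p = 0.0382, edgeR), with a median of -0.27. Of 13 regulators of respiratory gene transcription, 1 was called higher, Gabpb1, the beta subunit of GABP, and the median was -0.02 (6 positive, 7 negative). Gabpb1 was at 20.3, 20.6 and 20.2 CPM in libraries labelled WT and at 62.5, 93.5 and 56.8 CPM in the 3 labelled mPGES-1 KO (1.80 ± 0.32, adjusted p = 0.0324, edgeR). The 3 libraries labelled WT were level, WT 1 included.

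Of 27 mitochondrial import genes, 1 was called lower, Tomm40, the channel of the outer membrane translocase (173, 155 and 115 CPM against 37.6, 64.6 and 54.1 CPM; -1.50 ± 0.31, adjusted p = 0.0484, edgeR), and the median was -0.20. Slc25a36, Fastk, Gabpb1 and Tomm40 each lost the call in 7 to 11 of 15 alternative settings, among them leaving out WT 2, WT 3 or any library labelled mPGES-1 KO, with adjusted p-values up to 0.414. Of 22 citric acid cycle enzymes, 0 were called and the median was 0.14, with Suclg2 (1.57) and Mdh1 (1.05) largest in value. Of 21 mitochondrial stress and antioxidant genes, 0 were called and the median was 0.26, with Atf5 at -1.31 and the inner-membrane protease Yme1l1 at 1.27. Both lists of ribosomal proteins were chosen after their values were seen. The 77 of the mitochondrial ribosome had 0 called and a median of -0.37, with 58 negative. Of these 77, 24 were lower without overlap (31.2%, against 22.1% of the nuclear members and 15.7% of all genes). The summed share of the mitochondrial list was 0.589% to 0.697% in libraries labelled WT and 0.432% to 0.5755% in those labelled mPGES-1 KO, without overlap. The 83 of the cytosolic ribosome had a median of -0.23, with 67 negative and 1 called lower, Rps4l (-3.03, adjusted p = 0.0241, edgeR). Of these 83, 8 were lower without overlap (9.64%), and their summed share overlapped. Of the paralogs outside the rule, Ndufa4l2 (-5.72 ± 0.55, adjusted p = 0.0143, edgeR) and Cox4i2 (-4.97 ± 0.78, adjusted p = 0.0272, edgeR) were called lower, and Ndufa4 and Cox4i1 were not called. Without WT 2, mPGES-1 KO 2 or mPGES-1 KO 3, Ndufa4l2, Cox4i2 and Ptges lost the call, and Cox4i2 also without WT 3 or mPGES-1 KO 1 (adjusted p up to 0.106). Pericyte markers moved with both paralogs, at 9 of 14 called lower, and their part was not tested.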

How the data were processed

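The authors deposited unnormalized counts of reads for each gene symbol in 6 libraries. FastQC 0.11.5, STAR and the build mm10 are named in the submitters' processing notes, with the counting program and annotation not given in the sources used here. Members were found by symbol and matched to GENCODE M21 (GRCm38, the assembly mm10 names) for position, length and sequence shared between transcripts. Members and gene lists were chosen with earlier results of these data known. Genes named are the targeted gene, the mitochondrial mRNAs, called members, the 4 largest differences in each direction without overlap at a mean of at least 5 CPM, the highest member per kilobase of each complex, textbook and tissue isoforms, and called or largest genes of each pathway list; Ndufs8, Ndufv2, Ndufa11, Atp5k and Uqcrq were added after their values were seen. The rule's Uqcrc1 was not analysed here.

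Counts were tested with edgeR 4.0.16 in R 4.3.3 (filterByExpr, TMM, robust quasi-likelihood fit without covariate, two-sided, Benjamini-Hochberg adjustment over 16543 genes), and the procedure was tested on simulated data. The standard error is the absolute log2 fold change over the square root of F. TMM-scaled totals underlie CPM. The common coefficient of biological variation, 0.818, limits which differences can be called. Single values per library were compared by exact permutation over the 20 splits. Alternatives used DESeq2 1.42.0, limma 3.58.1, other scalings and filters, offsets for GC content and length, a replicate block and leaving out each library.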

Additional observations from a re-analysis of the deposited data

How the results depend on the processing

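Against 456 genes called by edgeR, 0 were called with a replicate block, 301 with GC and length offsets, 2108 by DESeq2, 1965 by limma-voom with quality weights, and 0 to 568 with 1 library left out (568 without WT 1, 1 without WT 2, 0 without mPGES-1 KO 2 or 3). Called nuclear members went from 0 to 2 with DESeq2 and 18 with limma-voom, and called mitochondrial members from 0 to 3 and 7, and to between 0 and 2 with 1 library left out. The medians of the mitochondrial mRNAs (0.68 to 1.72 with 1 library left out, 1.72 without WT 1) and of the nuclear members (-0.64 to -0.30; -0.16 with GC and length offsets) kept their signs in all settings run. The log2 ratio of both sums ran from 1.09 (without WT 2) to 2.28 (without WT 1). The rank correlation with length became -0.0195 with offsets that correct for GC content and length together. Offsets for length alone were not run.

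Of 47 named genes, 37 kept their direction in all settings. With the offsets, Uqcr10 (0.12), Cox6a1 (0.29), Atp5g3 (0.059), Sdha (-0.072), Cyc1 (0.13), Cox7a1 (0.48), Cox8a (0.37) and Cox8b (0.010) changed sign, and with limma-voom Cyc1 (0.062) and Cox6a2 (-0.29). With 1 library left out, the sign changed for Sdha (-0.011 to 0.19, negative without WT 3), Cyc1 (-0.46 to 0.17, positive without WT 1), Cox8b (-1.04 to 0.070, positive without WT 3), Atp5g2 (-0.023 to 0.27) and Cox6a2 (-0.93 to 2.88), both negative without mPGES-1 KO 3, and Cox7a1 (-0.36 to 0.15, positive without WT 2, mPGES-1 KO 2 or mPGES-1 KO 3). The cause was not tested. Same-numbered libraries did not deviate together (correlations of -0.0634, 0.0278 and -0.0166), and neither did libraries of different number (-0.0517 to 0.0631). Correlations near 0 cannot show whether the numbers pair the libraries. With 3 libraries a group, the exact tests could not go below 0.1.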
